A study of Homo sapiens with 24 samples.

Results

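YAP5SA, a form of the transcriptional coactivator YAP in which 5 serines that the LATS kinases phosphorylate are replaced by alanine, was compared with empty vector (EV) in SW872 cells, an established human liposarcoma line. The 3 YAP5SA libraries and the 3 EV libraries, all collected 48 h after the cells reached confluence, were chosen by their labels from 24 libraries in 8 groups. Genes averaging 5 counts or more over these 6 libraries were kept, which held for 19440 of the 60279 genes in the count files. Both groups carried a pBabeNeo retroviral vector and were pools of stably transduced cells selected with G418, so they shared the vector and the drug selection, and the lines came from one parental line. The replicates came from separate transductions. The retroviral promoter sets the level of the transgene, so the YAP5SA cells are a model of forced expression.

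YAP and its paralog TAZ carry no DNA-binding domain of their own and reach the genome through TEAD transcription factors. In crowded cells the Hippo kinases (MST1 and MST2, then LATS1 and LATS2) phosphorylate YAP, which is then held in the cytoplasm or degraded. Active YAP with TEAD is known to drive growth-regulatory, cytoskeletal and matrix genes, often at sites it shares with the AP-1 factors.

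Of the 19440 genes tested, 8900 were called (45.8%) at a Benjamini-Hochberg adjusted p under 0.05 in edgeR. They were 4534 called higher in YAP5SA (23.3%) and 4366 called lower (22.5%), so both directions were about equally common with library sizes scaled by TMM, the trimmed mean method of edgeR. With scaling by the total count instead, the median gene shifted by -0.18 on the log2 scale, and 3182 genes were called higher against 6821 lower. Changes of small size made up most calls, as 64.8% of called genes changed by less than 2-fold. At 2-fold or more, 1762 were higher and 1373 lower, and at 8-fold or more 372 were higher and 107 lower. Because nearly every second gene passed the test, each gene group below is read against these background shares. The shares also differed with expression level. Among the 2752 tested genes with the highest mean counts, 38.3% were called higher and 15.0% lower. Among the 4004 with the lowest mean counts, these shares were 14.3% and 14.9%. No list was compared with genes of matched counts, so a list of abundant genes can exceed 23.3% through its expression level. The CPM values of the YAP5SA and EV libraries did not overlap in 10433 of the genes tested (53.7%). Genes named below for the size of their change also had to show no overlap, so its absence is no added support for them. RNA was taken from bulk cultures, so a change in the number of cells that express a gene cannot be told apart from a change in its RNA per cell.

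Totals ranged from 23184246 to 25830489 counts in YAP5SA and from 19700277 to 26984451 counts in EV. Mitochondrial genes took 3.87% to 4.35% of the counts in YAP5SA and 5.09% to 5.43% in EV. Among the YAP5SA libraries, replicate 3 stood apart for some strongly changed genes, such as KRT17 and the troponin TNNI1, and its values are given where a result rests on them. Transcript GC content also moved with the fold changes. Among genes averaging 50 counts or more, put in 5 bins of equal size, those of lowest GC content (30.2% to 40.7%) had a median log2 fold change of -0.24, against 0.10 in the bin from 51.4% to 57.9%. The shares of members called in each group are drawn in the plot of list shares.

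**Figure D1:**
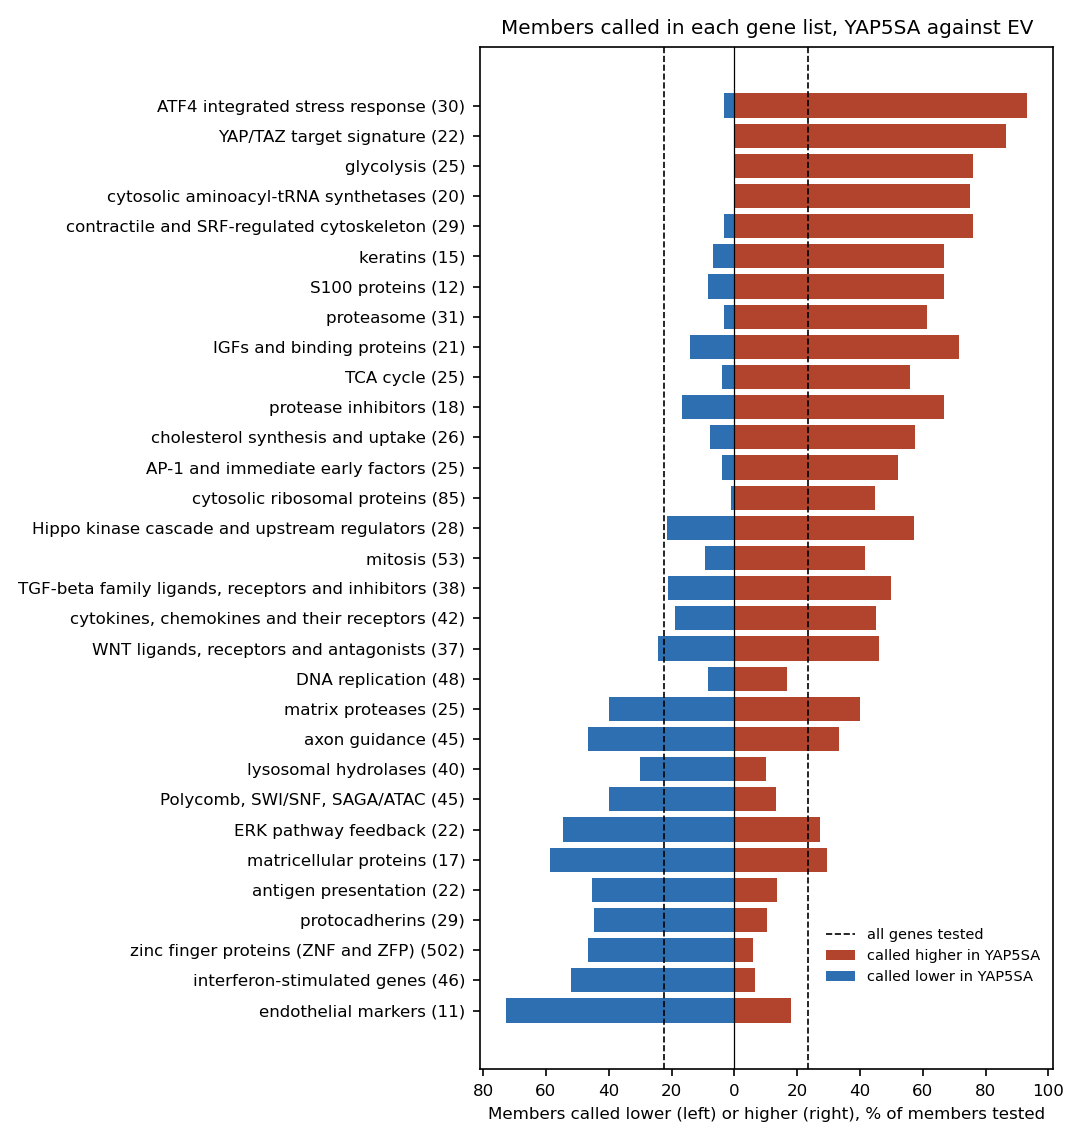
Share of tested members called higher (right, red) or lower (left, blue) in YAP5SA than in EV, in % of members tested (x axis), for 31 gene lists and classes, with the number of members tested in brackets. Dashed lines mark the shares over all genes tested, 23.3% higher and 22.5% lower; ATF4 integrated stress response and the YAP/TAZ targets lie far to the right and endothelial markers to the left.

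The gene behind the construct was examined first. YAP1 (ENSG00000137693, chromosome 11, 102110447 to 102233424, plus strand, GRCh38) was counted at 249, 249.7 and 257 CPM in the YAP5SA libraries and 141, 127 and 116 CPM in the EV libraries (log2 fold change 0.98, SE 0.10, adjusted p = 2.03e-08). The groups did not overlap, and because transduced cDNA can be counted on the resident gene, this value may hold both. WWTR1 (ENSG00000018408, chromosome 3, 149517235 to 149736714, minus strand), which encodes TAZ, moved the other way, at 70.1, 66.8 and 68.3 CPM in the YAP5SA libraries and 225, 203 and 184 CPM in the EV libraries (log2 fold change -1.58, SE 0.08, adjusted p = 1.91e-13). It was lower in every YAP5SA library than in any EV library. TEAD4 rose, at 53.3, 54.5 and 53.8 CPM in the YAP5SA libraries and 21.3, 22.01 and 23.2 CPM in the EV libraries (log2 fold change 1.28, SE 0.11, adjusted p = 6.33e-10), and TEAD3 rose by a log2 fold change of 0.66 (adjusted p = 1.91e-05). TEAD1 was not called (log2 fold change 0.10, SE 0.13, adjusted p = 0.574), and TEAD2 fell (log2 fold change -0.62, SE 0.12, adjusted p = 1.93e-04).

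YAP/TAZ target genes were higher as a group. Of the 22 genes of a common YAP/TAZ target signature, 19 rose, 0 fell and 3 did not pass the test (total-count scaling, 18 higher and 1 lower), with a median log2 fold change of 1.30 against -0.04 over all genes tested. ANKRD1, a nuclear ankyrin-repeat protein, was counted at 175, 162 and 229 CPM in the YAP5SA libraries and 1.59, 0.838 and 0.823 CPM in the EV libraries (log2 fold change 7.40, SE 0.39, adjusted p = 3.21e-13). CCN1, a secreted matricellular protein (formerly CYR61), reached 741, 725 and 726 CPM in the YAP5SA libraries and 44.4, 42.3 and 35.9 CPM in the EV libraries (log2 fold change 4.16, SE 0.12, adjusted p = 1.10e-17). CCN2 (formerly CTGF), of the same family, stood at 521, 469 and 482 CPM in the YAP5SA libraries and 26.6, 20.7 and 16.5 CPM in the EV libraries (log2 fold change 4.52, SE 0.21, adjusted p = 2.76e-14). In all of these the YAP5SA libraries were far above the EV libraries and close to each other. AXL, a receptor tyrosine kinase, was at 856, 874 and 734 CPM in the YAP5SA libraries and 87.1, 86.9 and 90.6 CPM in the EV libraries. IGFBP3, a member of the signature that binds insulin-like growth factors, did not pass the test (log2 fold change -0.66, SE 0.28, adjusted p = 0.0596), nor did RBMS3 and ARHGEF17.

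The promoters of these genes were searched for the TEAD motif CATTCC on both strands, since TEADs are the factors through which YAP acts. Promoter sequences (250 bases before to 50 bases after a start) came from RefSeq on GRCh38.p14 and matched 12757 of the tested genes. The motif was present in 9 of 19 listed promoters of signature genes, where a gene can have several (47.4%). It was present in 11.8% of all promoters of tested genes, in 17.2% of those of genes called higher by at least 2-fold, and in 13.7% of those of genes called lower by at least 2-fold. The upstream bases of the ANKRD1 and CCN2 promoters are shown because these genes had the largest rises in the signature, with the motif in capitals on either strand.
ANKRD1 (chr10:90921088-90921337, minus strand): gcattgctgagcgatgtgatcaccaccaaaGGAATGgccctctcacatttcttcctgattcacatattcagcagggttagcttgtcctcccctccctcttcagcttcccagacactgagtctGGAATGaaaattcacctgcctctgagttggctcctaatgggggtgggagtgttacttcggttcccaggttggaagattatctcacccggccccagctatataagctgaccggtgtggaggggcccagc
CCN2 (chr6:131951373-131951622, minus strand): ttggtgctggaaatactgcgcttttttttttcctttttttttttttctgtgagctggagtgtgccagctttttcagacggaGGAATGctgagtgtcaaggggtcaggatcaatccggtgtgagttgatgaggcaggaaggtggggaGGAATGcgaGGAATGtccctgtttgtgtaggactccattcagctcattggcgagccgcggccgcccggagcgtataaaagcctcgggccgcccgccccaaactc
ANKRD1 held 2 matches in these 250 bases and CCN2 held 3. The AP-1 motif TGANTCA, which does not contain the TEAD motif, was found in 5.61% of all promoters, 8.92% of the higher set and 7.73% of the lower set. A match describes these letters only and shows no binding. The target lists searched here and below hold genes already known to respond to the factor or stimulus. A high share of its motif in such a list is therefore no result about YAP5SA.

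Regulators upstream of YAP were also changed. Of 28 members of the Hippo cascade, 16 rose and 6 fell (total-count scaling, 13 higher and 9 lower), and 3 fell without EV replicate 1 or without YAP5SA replicate 1 or 2. AMOTL2, a junctional protein that binds YAP, was at 280.2, 311 and 314 CPM in the YAP5SA libraries and 21.1, 20.4 and 21.1 CPM in the EV libraries (log2 fold change 3.85, SE 0.11, adjusted p = 1.10e-17). WWC1 (KIBRA), which activates the LATS kinases, was at 39.8, 41.3 and 44.7 CPM in the YAP5SA libraries and 4.796, 5.33 and 4.94 CPM in the EV libraries (log2 fold change 3.06, SE 0.18, adjusted p = 1.14e-12). LATS2 rose as well (log2 fold change 1.46, SE 0.12, adjusted p = 4.37e-10), whereas LATS1 fell by 0.48 on the log2 scale. NF2 (Merlin), which recruits LATS to the membrane, rose with 128, 138 and 102 CPM against 64.9, 67.97 and 69.8 CPM (log2 fold change 0.86, SE 0.11, adjusted p = 9.19e-07). The giant cadherins FAT4 and DCHS1, a receptor and its ligand, were among the members that fell, at log2 fold changes of -1.61 (adjusted p = 0.033) and -0.68 (adjusted p = 1.27e-04).

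The contractile cytoskeleton was broadly higher. Of 29 contractile genes and genes regulated by the serum response factor SRF, 22 rose and 1, the SRF cofactor MRTFB, fell. With total-count scaling these counts were 20 and 2, and 23 rose without YAP5SA replicate 3. Together the members in the files took 2.52% ± 0.188 of all counts in YAP5SA and 1.41% ± 0.0181 in EV (SD, n = 3). TAGLN (transgelin), an actin-bundling protein, was at 261, 285 and 184 CPM in the YAP5SA libraries and 21.6, 18.7 and 16.9 CPM in the EV libraries (log2 fold change 3.67, SE 0.22, adjusted p = 1.62e-12). FLNA, which crosslinks actin filaments, rose from 2478, 2486 and 2527 CPM in EV to 7089, 8115 and 6669 CPM in YAP5SA (log2 fold change 1.55, SE 0.10, adjusted p = 1.47e-11), and MYH9, a non-muscle myosin heavy chain, from 508, 534 and 609 to 1755, 1865 and 1704 CPM. The groups did not overlap in any of these. ACTA2, smooth muscle actin, stayed near 1.82 CPM in EV and 1.92 CPM in YAP5SA and was not called (log2 fold change 0.08, SE 0.20, adjusted p = 0.782). The CArG box, the SRF binding motif, was present in 9 of 49 promoters of this list (18.4%) and in 1.13% of all promoters. It was found in 2.12% of the promoters of genes called higher by at least 2-fold and in 1.46% of those called lower by at least 2-fold. The FLNA promoter is shown as an example, with the CArG box in capitals.
FLNA (chrX:154374635-154374884, minus strand): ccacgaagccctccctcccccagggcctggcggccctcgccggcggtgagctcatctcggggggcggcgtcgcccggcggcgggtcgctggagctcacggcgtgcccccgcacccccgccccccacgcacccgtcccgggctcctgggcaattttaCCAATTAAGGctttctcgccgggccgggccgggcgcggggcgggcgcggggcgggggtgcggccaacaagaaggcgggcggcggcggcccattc

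Adhesion and junction genes moved in both directions. In the focal adhesion plaque, 15 of 27 genes rose and 4 fell (total-count scaling, 13 higher and 6 lower), with 1 lower without EV replicate 1 or YAP5SA replicate 2. LIMS2 (PINCH2), an adaptor of integrin-linked kinase, showed the largest rise, at 28.4, 35.8 and 30.6 CPM in the YAP5SA libraries and 2.001, 2.63 and 2.95 CPM in the EV libraries (log2 fold change 3.66, SE 0.16, adjusted p = 1.15e-14). Integrins split, with 5 of 18 higher and 7 lower (total-count scaling, 5 higher and 8 lower). ITGB2, the beta chain of leukocyte integrins, was at 17.97, 21.3 and 27.2 CPM in the YAP5SA libraries and 0.3795, 0.762 and 0.533 CPM in the EV libraries, whereas ITGA9 fell from 92.01, 97.7 and 109 to 13.9, 14.7 and 11.5 CPM (log2 fold change -2.90, SE 0.21, adjusted p = 9.72e-11). Of 32 cadherins and junction proteins 19 rose, CDH4 and CLDN1 with log2 fold changes of 4.63 (adjusted p = 1.98e-13) and 4.13 (adjusted p = 1.23e-10), and 7 fell (total-count scaling, 18 higher and 9 lower). CDH2 (N-cadherin) was at 26.2, 26.3 and 28.1 CPM in the YAP5SA libraries and 4.14, 4.91 and 4.94 CPM in the EV libraries, and CDH11, a mesenchymal cadherin, fell (log2 fold change -1.38, SE 0.27, adjusted p = 1.81e-04). Clustered and other protocadherins showed the opposite balance, with 3 of 29 higher and 13 lower (total-count scaling, 3 higher and 16 lower), and 5 higher without YAP5SA replicate 2.

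AP-1 subunits and other immediate early factors rose in 13 of 25 genes and fell in 1 (total-count scaling, 13 and 4). FOSL1 (FRA1) was at 87.2, 86.5 and 53.5 CPM in the YAP5SA libraries and 12.1, 12.03 and 9.44 CPM in the EV libraries (log2 fold change 2.75, SE 0.32, adjusted p = 1.94e-07), and JUN rose by a log2 fold change of 1.61 (adjusted p = 1.06e-07). FOS and EGR1, which serum induces within minutes, were not called, at log2 fold changes of -1.10 (adjusted p = 0.0511) and -1.02 (adjusted p = 0.165). MYC was at 27.6, 28.7 and 32.9 CPM in the YAP5SA libraries and 24.98, 20.8 and 16.7 CPM in the EV libraries and was not called either (log2 fold change 0.51, SE 0.27, adjusted p = 0.129).

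Extracellular matrix genes moved in both directions. Of 25 genes of fibrillar collagens and their processing, 13 rose and 4 fell (total-count scaling, 10 higher and 8 lower). The crosslinking enzyme LOX was at 61.8, 54.2 and 43.6 CPM in the YAP5SA libraries and 7.97, 6.59 and 6.44 CPM in the EV libraries (log2 fold change 2.92, SE 0.18, adjusted p = 5.01e-12), and LOXL4 at 52.3, 52.2 and 44.8 CPM in the YAP5SA libraries and 12.4, 12.8 and 11.7 CPM in the EV libraries. COL1A1 was at 72.1, 85.03 and 27.4 CPM in the YAP5SA libraries and 24.3, 19.4 and 14 CPM in the EV libraries (log2 fold change 1.67, SE 0.33, adjusted p = 2.59e-04), and YAP5SA replicate 3 was the lowest of its group by far though still above EV. COL3A1 was not called (log2 fold change -0.40, SE 0.17, adjusted p = 0.0627), although it was called lower with total-count scaling (adjusted p = 0.00582). Among collagens outside that list COL12A1, which binds the surface of collagen fibrils, was 618, 615 and 656 CPM in the YAP5SA libraries and 40.6, 48.1 and 47.1 CPM in the EV libraries (log2 fold change 3.799, SE 0.13, adjusted p = 3.71e-16), while the beaded-filament collagen COL6A1 fell from 670.2, 642 and 664 to 220.0, 270.4 and 221 CPM and COL15A1, a basement membrane zone collagen, from 443, 435 and 515 to 69.1, 69.1 and 77.7 CPM. Here the YAP5SA and EV libraries were well separated in both directions.

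The list of matricellular proteins held fibronectin but not CCN1 and CCN2, which both rose, so its counts depend on how it was drawn. In it 10 of 17 were called lower and 5 higher, with a median of -0.53 (total-count scaling, 4 higher and 10 lower). Without YAP5SA replicate 3 these counts were 7 and 6, and 3 were higher without EV replicate 1 or YAP5SA replicate 2. FN1 (fibronectin), the most abundant of them, stood at 2017, 1908 and 971 CPM in the YAP5SA libraries and 3547, 4403 and 4509 CPM in the EV libraries (log2 fold change -1.35, SE 0.23, adjusted p = 3.90e-05), with YAP5SA replicate 3 well below the other YAP5SA libraries. POSTN (periostin) was at 1.51, 1.42 and 2.04 CPM in the YAP5SA libraries and 22.4, 20.2 and 15.3 CPM in the EV libraries (log2 fold change -3.53, SE 0.32, adjusted p = 3.89e-09). THBS1 (thrombospondin 1), a member that rose, was at 209.6, 227 and 196 CPM in the YAP5SA libraries and 37.3, 30.9 and 30.2 CPM in the EV libraries (log2 fold change 2.68, SE 0.14, adjusted p = 3.64e-13). Of 22 proteoglycans and genes of hyaluronan synthesis 9 rose and 3 fell, with a median of 0.75 (total-count scaling, 9 higher and 6 lower). PRELP, a small leucine-rich proteoglycan, was at 60.1, 61.9 and 20.4 CPM in the YAP5SA libraries and 2.62, 2.32 and 1.501 CPM in the EV libraries, where YAP5SA replicate 3 was the lowest of its group, and GPC4, a glypican, was at 17.9, 17.2 and 19.7 CPM in the YAP5SA libraries and 2.04, 1.41 and 1.45 CPM in the EV libraries. Hyaluronan synthase HAS2 fell to 0.329, 0.473 and 0.2798 CPM from 4.52, 3.27 and 3.68 CPM, and versican (VCAN), a large proteoglycan that binds hyaluronan, from 40.2, 40.4 and 53.2 to 4.33, 4.31 and 4.16 CPM. Matrix proteases were called higher in 10 of 25 and lower in 10 (total-count scaling, 8 higher and 12 lower), and protease inhibitors rose in 12 of 18 and fell in 3 (total-count scaling, 11 higher and 5 lower). PLAUR, the urokinase receptor, was at 47.5, 49.9 and 36.6 CPM in the YAP5SA libraries and 7.11, 6.32 and 8.04 CPM in the EV libraries (log2 fold change 2.64, SE 0.17, adjusted p = 9.82e-12).

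Secreted growth factors and their inhibitors formed another large block. In the TGF-beta family 19 of 38 genes rose, 15 of them by at least 2-fold, and 8 fell (total-count scaling, 16 higher and 11 lower). BMP4, a bone morphogenetic protein, was at 319, 339 and 298 CPM in the YAP5SA libraries and 33.5, 26.8 and 30.5 CPM in the EV libraries (log2 fold change 3.40, SE 0.17, adjusted p = 1.15e-13). TGFB2 was at 245, 214 and 201 CPM in the YAP5SA libraries and 40.7, 33.8 and 28.9 CPM in the EV libraries and TGFB3, encoding another isoform, moved the other way, at 4.75, 5.07 and 4.08 CPM in the YAP5SA libraries and 23.8, 25.7 and 23.9 CPM in the EV libraries. INHBB, the beta B subunit of activin, had 211, 214 and 213 counts in the YAP5SA libraries and 1, 0 and 3 in the EV libraries, which is at least 78.7-fold higher against a floor of 3 counts per library. The secreted antagonists FST, NOG and FSTL3 rose together with the ligands (log2 fold changes 3.66, 2.41 and 2.28), and BMP7 and GDF11 fell (-2.27 and -1.48). Of the receptors, TGFBR1, TGFBR2, TGFBR3 and ACVR2A fell and ACVR2B rose.

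Insulin-like growth factor genes and their binding proteins rose in 15 of 21 and fell in 3 (total-count scaling, 13 higher and 4 lower). STC2, which blocks the proteases that release IGF from its binding proteins, was at 278, 286 and 255 CPM in the YAP5SA libraries and 42.95, 42.4 and 41.9 CPM in the EV libraries (log2 fold change 2.69, SE 0.25, adjusted p = 4.72e-09). IGF2 rose and IGF1 fell, at log2 fold changes of 1.93 (adjusted p = 6.19e-09) and -2.13 (adjusted p = 0.00971). WNT ligands, receptors and antagonists rose in 17 of 37 and fell in 9 (total-count scaling, 15 and 14). AXIN2, a target and feedback inhibitor of beta-catenin signalling, was at 17.4, 17.3 and 12.9 CPM in the YAP5SA libraries and 6.38, 5.86 and 4.21 CPM in the EV libraries (log2 fold change 1.52, SE 0.18, adjusted p = 2.12e-07), with WNT7A and WNT7B higher (3.31 and 2.98). Of the frizzled receptors FZD1, FZD3, FZD4, FZD8 and FZD9 fell and FZD2 rose, with FZD4 at 31.3, 30.2 and 28.02 CPM in the YAP5SA libraries and 95.7, 106 and 62.4 CPM in the EV libraries. PDGFB, the ligand of the platelet-derived growth factor receptors, was at 19.99, 22.96 and 18.1 CPM in the YAP5SA libraries and 0.276, 0.457 and 0.436 CPM in the EV libraries, and the receptor PDGFRA fell from 47.2, 46.99 and 42.4 to 7.76, 7.67 and 6.195 CPM (log2 fold change -2.66, SE 0.11, adjusted p = 2.77e-15).

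Negative-feedback genes of the ERK pathway, whose transcripts track ERK activity in many cells, were mostly lower. Of 22 genes 12 fell and 6 rose, with a median of -0.59 (total-count scaling, 14 and 4). DUSP6, an ERK phosphatase, was at 33.2, 27.2 and 28.9 CPM in the YAP5SA libraries and 97.8, 95.9 and 93.8 CPM in the EV libraries (log2 fold change -1.69, SE 0.13, adjusted p = 1.34e-10), SPRY4 at 19.99, 21.6 and 20.02 CPM in the YAP5SA libraries and 61.8, 60.1 and 56.7 CPM in the EV libraries and the ETS factor ETV1 at 13.03, 13.97 and 14.6 CPM in the YAP5SA libraries and 67.9, 61.8 and 57.7 CPM in the EV libraries. The members that rose included DUSP1 (log2 fold change 2.46, SE 0.19, adjusted p = 1.87e-10), a stress-induced phosphatase of several MAP kinases. EGFR itself was at 177, 179 and 177 CPM in the YAP5SA libraries and 180.3, 183 and 165 CPM in the EV libraries and was not called (log2 fold change 0.01, SE 0.07, adjusted p = 0.896), though with total-count scaling it was called lower (log2 fold change -0.17, adjusted p = 0.0485). Its ligand HBEGF and the related receptor ERBB3 rose (log2 fold changes 2.29 and 3.87). Of 15 EGF family ligands and receptors, however, 4 rose and 6 fell, with a median of -0.28 (total-count scaling, 4 higher and 9 lower).

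**Figure D2:**
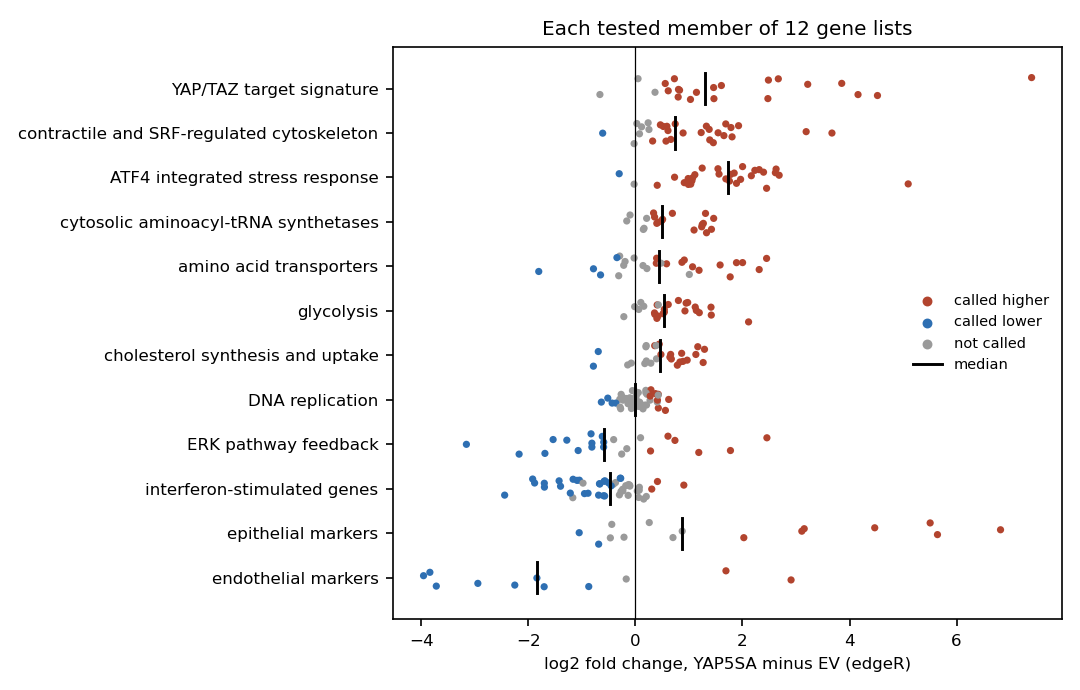
Log2 fold change (x axis, YAP5SA minus EV, edgeR) of each tested member of 12 gene lists (y axis), with red points called higher, blue called lower and grey not called, and black bars at the median. ATF4 target genes centre on 1.72 and endothelial markers on -1.84, whereas DNA replication genes centre on 0.

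Amino acid stress genes formed the list with the largest share of rises among the 68 lists. ATF4, a transcription factor whose translation increases when eIF2 is phosphorylated, drives amino acid synthesis and uptake, and 28 of 30 of its target genes rose, 23 of them by at least 2-fold, with 1 lower and a median of 1.72. With total-count scaling 28 were higher and 1 lower, with a median of 1.55. ASNS, asparagine synthetase, was at 995, 860.0 and 1031 CPM in the YAP5SA libraries and 129, 104 and 239 CPM in the EV libraries (log2 fold change 2.62, SE 0.27, adjusted p = 3.31e-08). PSAT1 and PHGDH, enzymes of serine synthesis, were at 1061, 944 and 1062 against 216, 169.7 and 298 CPM and 503, 556 and 509 against 121, 119 and 197 CPM. EV replicate 3 was the highest EV library in all of these and still below every YAP5SA library. Without it 28 members were called higher, and without YAP5SA replicate 3 also 28. SLC7A5, a transporter of large neutral amino acids, was at 1016, 1102 and 1106 CPM in the YAP5SA libraries and 188, 154 and 248 CPM in the EV libraries (log2 fold change 2.45, SE 0.24, adjusted p = 8.70e-09), and its partner SLC3A2 rose by a log2 fold change of 2.00 (adjusted p = 7.11e-08). The stress regulators TRIB3 and CHAC1 rose (log2 fold change 1.97, SE 0.28, adjusted p = 3.23e-06 for TRIB3), as did ATF4 mRNA (log2 fold change 1.11, SE 0.09, adjusted p = 7.35e-10). ATF5 was the member that fell (log2 fold change -0.30, SE 0.11, adjusted p = 0.0265), and it was not called without EV replicate 2 or 3 or without YAP5SA replicate 1. SLC38A2 was not called.

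The enzymes that charge tRNA with amino acids were higher as well. Of 20 cytosolic aminoacyl-tRNA synthetases 15 rose, 0 fell and 5 were not called (total-count scaling, 12 higher and 2 lower). CARS1, for cysteine, was at 411, 370.2 and 383 CPM in the YAP5SA libraries and 126, 126 and 170.1 CPM in the EV libraries (log2 fold change 1.46, SE 0.09, adjusted p = 9.10e-12), and SARS1, for serine, at 458, 449.7 and 452 CPM in the YAP5SA libraries and 152, 154 and 202 CPM in the EV libraries. HARS1, RARS1, QARS1 and FARSA were among those that did not pass the test, with log2 fold changes between -0.16 and 0.21. Amino acid transporters rose in 13 of 26 and fell in 4 (total-count scaling, 11 higher and 7 lower). One-carbon, serine and nucleotide synthesis genes rose in 15 of 30 and fell in 2 (total-count scaling, 11 higher and 6 lower), and 4 fell without EV replicate 3. Chaperones and other targets of the unfolded protein response were higher in 10 of 25 and lower in 3, with a median of 0.18 (total-count scaling, 7 higher and 6 lower), and 1 was lower without EV replicate 3 or YAP5SA replicate 1. HERPUD1, which takes part in the degradation of misfolded proteins, was at 198, 187 and 193 CPM in the YAP5SA libraries and 99.3, 102 and 122 CPM in the EV libraries.

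ATF4 binds with C/EBP partners at the CARE motif, TGATGNAA. It was found in 7 of 21 promoters of the synthetases (33.3%) and 6 of 36 of the ATF4 list (16.7%). Among all promoters of tested genes 2.16% held it. It was found in 4.801% of the promoters of genes called higher by at least 2-fold and in 3.09% of those called lower by at least 2-fold. Promoters of ASNS, CHAC1 and the glycyl-tRNA synthetase GARS1 are shown, with the motif on either strand in capitals, because they span the synthesis, stress and charging genes above.
ASNS (chr7:97872409-97872658, minus strand): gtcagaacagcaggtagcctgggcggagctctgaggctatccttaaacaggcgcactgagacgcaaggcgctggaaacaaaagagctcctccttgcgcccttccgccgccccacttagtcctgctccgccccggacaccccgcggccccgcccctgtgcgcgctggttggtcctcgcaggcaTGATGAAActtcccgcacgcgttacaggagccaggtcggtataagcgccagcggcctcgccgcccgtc
CHAC1 (chr15:40953221-40953470, plus strand): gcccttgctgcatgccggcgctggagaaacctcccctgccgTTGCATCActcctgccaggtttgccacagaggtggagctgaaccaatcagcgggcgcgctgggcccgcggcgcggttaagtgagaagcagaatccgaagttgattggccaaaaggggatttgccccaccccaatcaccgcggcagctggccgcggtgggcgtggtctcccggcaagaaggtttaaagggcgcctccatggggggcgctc
GARS1 (chr7:30594628-30594877, plus strand): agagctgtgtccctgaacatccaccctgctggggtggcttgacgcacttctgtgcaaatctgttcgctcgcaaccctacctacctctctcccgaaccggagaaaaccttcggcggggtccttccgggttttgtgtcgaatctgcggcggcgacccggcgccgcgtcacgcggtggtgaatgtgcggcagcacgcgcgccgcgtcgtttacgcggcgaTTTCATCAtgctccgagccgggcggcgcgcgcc
CHAC1 was at 36.5, 39.6 and 51 CPM in the YAP5SA libraries and 5.76, 6.32 and 12.4 CPM in the EV libraries and GARS1 at 792, 707 and 772 CPM in the YAP5SA libraries and 295, 263 and 347 CPM in the EV libraries, and in neither did the groups overlap.

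Energy and lipid metabolism were higher in part. Glycolysis genes rose in 19 of 25, none fell, and the median was 0.54 (total-count scaling, 15 higher and 1 lower). The kinase PFKP was at 222, 232 and 177 CPM in the YAP5SA libraries and 78.5, 78.5 and 79.3 CPM in the EV libraries (log2 fold change 1.42, SE 0.11, adjusted p = 2.15e-10), and the glucose transporter SLC2A1 rose by a log2 fold change of 1.19 (adjusted p = 8.72e-06), with YAP5SA replicate 3 at 92.05 CPM below replicates 1 and 2 (149.9 and 155 CPM). NDRG1, a hypoxia-responsive gene, showed the same pattern, at 634, 600.3 and 253 CPM in the YAP5SA libraries and 97.2, 82.8 and 69.5 CPM in the EV libraries. Cholesterol synthesis and uptake genes rose in 15 of 26 and fell in 2 (total-count scaling, 13 higher and 4 lower). HMGCS1, an early enzyme of the pathway, was at 315, 274 and 251 CPM in the YAP5SA libraries and 169.6, 150 and 152 CPM in the EV libraries (log2 fold change 0.83, SE 0.25, adjusted p = 0.00856). SQLE, a later and rate-limiting enzyme, was not called (log2 fold change 0.20, SE 0.16, adjusted p = 0.323). In the NRF2 antioxidant list 13 of 31 rose and 7 fell (total-count scaling, 9 higher and 8 lower). TXNRD1, thioredoxin reductase, was at 1722, 1691 and 2108 CPM in the YAP5SA libraries and 328, 315 and 314 CPM in the EV libraries (log2 fold change 2.53, SE 0.17, adjusted p = 1.94e-11), while NQO1, another target of NRF2, fell from 649, 764 and 769 to 508, 476 and 472 CPM.

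Mitochondrial genes showed small shifts that depended on scaling. TCA cycle genes rose in 14 of 25 and fell in 1 (total-count scaling, 7 higher and 4 lower), with 2 lower without YAP5SA replicate 2 or 3. Subunits of complexes III, IV and V were higher in 13 of 34 and lower in 0 (total-count scaling, 3 higher and 7 lower), with 8 higher without EV replicate 1. Their share called higher, 38.2%, was close to the 38.3% among the 2752 genes with the highest mean counts, of which 15.0% were called lower. Whether these subunits differ from other genes of like counts was not tested. Complex I subunits were called higher in 5 of 37 and lower in 2, and with total-count scaling in 0 and 9. Of them 3 were higher without EV replicate 1 or 2 or without YAP5SA replicate 2. The 13 subunits encoded in mitochondrial DNA had 5 lower and 0 higher (total-count scaling, 0 higher and 9 lower), with 2 lower without EV replicate 2 or YAP5SA replicate 1 and 3 without YAP5SA replicate 3. Among them MT-ND5 stood at 1292, 1359.6 and 1379 CPM in the YAP5SA libraries and 1891, 2054 and 2021 CPM in the EV libraries (log2 fold change -0.57, SE 0.16, adjusted p = 0.00656). Cytosolic ribosomal proteins were slightly higher, with 38 of 85 called higher, 1 lower and a median of 0.24, but with total-count scaling 10 were higher and 8 lower. Those called higher numbered 20 without EV replicate 1, 21 without YAP5SA replicate 1 and 24 without YAP5SA replicate 2. With all libraries, 44.7% of these ribosomal proteins were called higher, against 38.3% of the 2752 genes with the highest mean counts. Proteasome subunits rose in 19 of 31 and fell in 1 (total-count scaling, 12 and 5), PSMB6 from 95.8, 104 and 98.95 to 146, 155 and 144 CPM. Lysosomal hydrolases were lower in 12 of 40 and higher in 4 (total-count scaling, 3 higher and 21 lower), and 8 were lower without EV replicate 3, although the protease CTSB rose from 869.8, 947 and 1019 to 2128, 2115 and 1644 CPM (log2 fold change 1.05, SE 0.12, adjusted p = 8.20e-08).

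Counts of changed genes of DNA replication and mitosis depended on scaling and on single libraries. Of 48 DNA replication genes 8 rose and 4 fell, against 23.3% and 22.5% of all genes, and no member reached 2-fold. With total-count scaling 2 were higher and 10 lower. Of these genes 3 were called higher without EV replicate 3, 4 without EV replicate 1 and 5 without YAP5SA replicate 1 or 2, and 1 was called lower without EV replicate 1 or YAP5SA replicate 2. MCM2, a replicative helicase subunit, was at 231, 241 and 186 CPM in the YAP5SA libraries and 206, 223 and 222 CPM in the EV libraries and the proliferation marker MKI67 at 195, 204 and 216 CPM in the YAP5SA libraries and 229, 214 and 198 CPM in the EV libraries. In both the groups overlapped and neither was called (adjusted p = 0.951 and 0.74). Mitotic genes rose in 22 of 53 and fell in 5, and with total-count scaling 14 were higher and 9 lower. Members called lower numbered 0 without EV replicate 1 or YAP5SA replicate 2, and 1 without YAP5SA replicate 1. AURKB, the kinase of the chromosomal passenger complex, was at 113, 112 and 105 CPM in the YAP5SA libraries and 57.3, 56.6 and 54.1 CPM in the EV libraries (log2 fold change 0.97, SE 0.12, adjusted p = 3.32e-07). Among regulators, CCND1 (cyclin D1) was at 268, 272 and 287 CPM in the YAP5SA libraries and 132, 126 and 105 CPM in the EV libraries (log2 fold change 1.19, SE 0.12, adjusted p = 1.77e-08) and RB1, the retinoblastoma gene, at 40.5, 39.7 and 46.8 CPM in the YAP5SA libraries and 127, 108 and 98.5 CPM in the EV libraries (log2 fold change -1.39, SE 0.14, adjusted p = 1.15e-08). Of 29 cyclins and CDK inhibitors 8 rose (27.6%) and 6 fell (20.7%), near the shares over all genes tested (total-count scaling, 6 higher and 9 lower). The D cyclins CCND1, CCND2 and CCND3 rose whereas the E cyclins CCNE1 and CCNE2 fell (log2 fold changes -0.84 and -1.38). Of 23 genes of the apoptosis list, the BCL2 family and apoptosis inhibitors, 10 rose and 3 fell (total-count scaling, 7 higher and 7 lower). In the apoptosis list BCL2L1 (BCL-XL), which blocks cell death, was at 334, 335 and 299.5 CPM in the YAP5SA libraries and 84.6, 93.7 and 92.1 CPM in the EV libraries (log2 fold change 1.84, SE 0.08, adjusted p = 2.76e-14), and BCL2L11 (BIM), which promotes it, fell from 38.2, 36.1 and 39.2 to 12.4, 11.6 and 13.8 CPM.

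**Figure D3:**
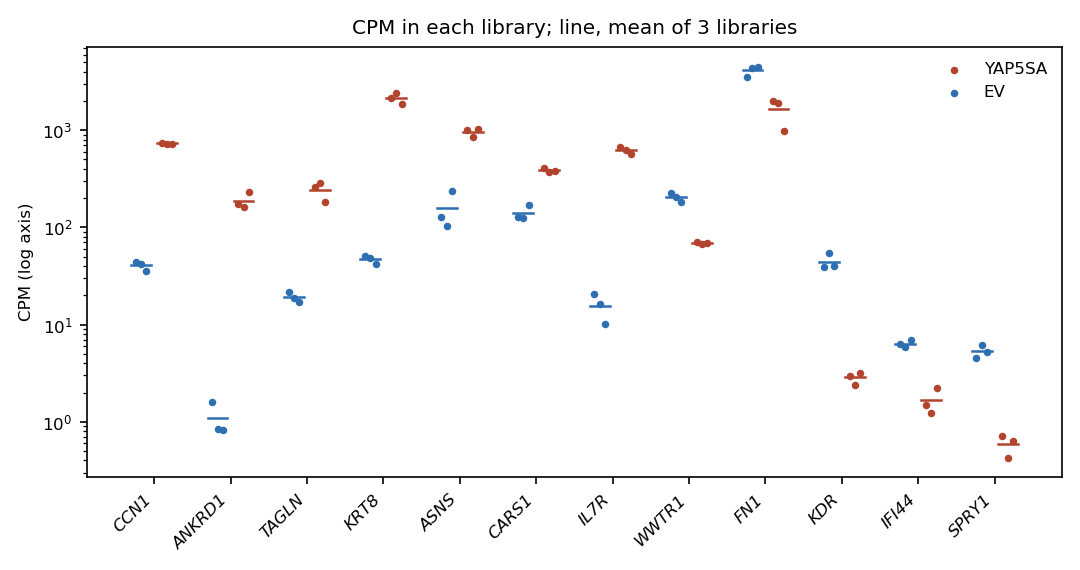
CPM on a log axis for 12 genes in each of the 3 YAP5SA (red) and 3 EV (blue) libraries, with a line at the mean of each group. KRT8, CCN1 and ANKRD1 lie far higher in every YAP5SA library, and KDR, IFI44 and SPRY1 lower.

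Interferon-stimulated genes were lower. Of 46 tested 24 fell, 11 of them by at least 2-fold, and 3 rose, with a median of -0.48 (total-count scaling, 31 and 1). Without YAP5SA replicate 3, 20 fell. IFI44 was at 1.51, 1.23 and 2.24 CPM in the YAP5SA libraries and 6.28, 5.86 and 6.93 CPM in the EV libraries (log2 fold change -1.92, SE 0.28, adjusted p = 5.13e-06), and SAMD9, an antiviral effector, at 3.95, 4.45 and 7.55 CPM in the YAP5SA libraries and 23.01, 15 and 21.3 CPM in the EV libraries (log2 fold change -1.88, SE 0.29, adjusted p = 1.25e-05). Levels were low in all libraries for these genes. IFITM2 was among the members that rose (log2 fold change 0.91, SE 0.17, adjusted p = 1.36e-04). The interferon-stimulated response element (ISRE) was present in 27 of 47 promoters of the list (57.4%) and in 2.9% of all promoters. It was found in 4.72% of the promoters of genes called lower by at least 2-fold and 2.37% of those called higher by at least 2-fold. The IFI44 promoter is shown with this element in capitals.
IFI44 (chr1:78649539-78649788, plus strand): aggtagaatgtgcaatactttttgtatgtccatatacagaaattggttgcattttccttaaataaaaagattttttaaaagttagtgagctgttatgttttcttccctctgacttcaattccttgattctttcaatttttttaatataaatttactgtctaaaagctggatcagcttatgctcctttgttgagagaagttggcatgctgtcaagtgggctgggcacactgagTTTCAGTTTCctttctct

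Antigen presentation genes were lower in 10 of 22 and higher in 3 (total-count scaling, 0 higher and 14 lower), with 0 higher without EV replicate 1 or 2 and 1 without YAP5SA replicate 1 or 2. The largest decreases were in class II genes, which were low throughout, such as HLA-DPA1 at 2.31, 2.37 and 2.52 CPM in the YAP5SA libraries and 6.42, 7.24 and 6.49 CPM in the EV libraries, and the class I light chain B2M was not called (log2 fold change -0.10, SE 0.09, adjusted p = 0.423). With total-count scaling B2M was called lower (log2 fold change -0.28, adjusted p = 0.0253). Cytokines, chemokines and their receptors moved strongly in both directions, with 19 of 42 higher, 17 of them by at least 2-fold, and 8 lower (total-count scaling, 17 higher and 11 lower). IL7R, the interleukin 7 receptor alpha chain, was at 668, 623 and 571 CPM in the YAP5SA libraries and 20.5, 16.1 and 10.2 CPM in the EV libraries (log2 fold change 5.30, SE 0.37, adjusted p = 3.95e-11). CXCL12, a chemokine of stromal cells, fell from 8.901, 7.88 and 5.38 to 0.988, 0.994 and 0.679 CPM (log2 fold change -3.07, SE 0.40, adjusted p = 9.05e-07), and VCAM1, an adhesion molecule for leukocytes, from 90.4, 87.5 and 96.2 to 22.7, 24.6 and 17.3 CPM. NF-kB factors and feedback genes were higher in 7 of 22 and lower in 5 (total-count scaling, 4 higher and 5 lower).

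Markers of cell lineages were examined across the panel. Mesenchymal markers, which liposarcoma cells are known to express, were present in both groups and took 0.414% ± 0.0507 of counts in YAP5SA and 0.547% ± 0.0263 in EV, with 3 of 12 higher and 4 lower (total-count scaling, 2 higher and 5 lower). VIM (vimentin) was not called (log2 fold change 0.05, SE 0.13, adjusted p = 0.798). Of the leukocyte markers 7 of 14 did not reach a mean of 5 counts, PTPRC (CD45) among them. Epithelial markers rose in 7 of 15 tested and fell in 2, and the share of counts they took was 0.334% ± 0.0391 in YAP5SA and 0.0238% ± 0.00104 in EV. KRT8 was at 2137, 2435 and 1869 CPM in the YAP5SA libraries and 51.3, 48.7 and 41.6 CPM in the EV libraries (log2 fold change 5.51, SE 0.20, adjusted p = 8.85e-16) and its partner KRT18 at 1528, 1568 and 1125 CPM in the YAP5SA libraries and 161, 158 and 155 CPM in the EV libraries (log2 fold change 3.15, SE 0.15, adjusted p = 8.42e-14). KRT17 was at 29.5, 29.8 and 4.48 CPM in the YAP5SA libraries and 0.345, 0.114 and 0.0484 CPM in the EV libraries, so YAP5SA replicate 3 was far below the others of its group. EPCAM, a defining epithelial gene, was called lower (log2 fold change -1.05, SE 0.34, adjusted p = 0.0146), though at 0.706, 0.521 and 0.5596 CPM in the YAP5SA libraries and 1.86, 1.104 and 0.6296 CPM in the EV libraries the groups overlapped, ESRP1 and ESRP2 were not called, and GRHL2 did not reach a mean of 5 counts. CDH1 (E-cadherin), also in this list, was higher at low counts. It had 29, 29 and 46 counts in the YAP5SA libraries and 1, 1 and 0 in the EV libraries (at least 12.6-fold). The part of other cell types in these marker changes was not tested.

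Keratins as a class rose in 10 of 15 genes, with a median of 4.47, and 11 did so without YAP5SA replicate 3. KRT80 was at 236, 248 and 178 CPM in the YAP5SA libraries and 1.04, 0.685 and 0.823 CPM in the EV libraries (log2 fold change 8.004, SE 0.30, adjusted p = 1.02e-15), and KRT81, a hair keratin, at 457, 548 and 388 CPM in the YAP5SA libraries and 1.93, 1.68 and 1.55 CPM in the EV libraries. KRT81 and KRT86 are near-identical in sequence, so reads may have been split between them and their separate levels are uncertain. Both KRT80 and KRT81 were at low levels in EV and higher in every YAP5SA library. Calcium-binding S100 proteins rose in 8 of 12 and annexins in 7 of 12 (2 lower, and 4 with total-count scaling).

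Endothelial markers were the list with the lowest median, -1.84, with 8 of 11 lower and 2 higher. KDR (VEGFR2) was at 2.96, 2.41 and 3.198 CPM in the YAP5SA libraries and 38.99, 54.8 and 39.8 CPM in the EV libraries (log2 fold change -3.95, SE 0.26, adjusted p = 1.65e-11), and the endothelial cadherin CDH5 at 6.59, 7.29 and 3.08 CPM in the YAP5SA libraries and 42.95, 54.6 and 31.2 CPM in the EV libraries (log2 fold change -2.94, SE 0.33, adjusted p = 9.96e-08). The list took 0.0112% ± 0.00122 of counts in YAP5SA and 0.0246% ± 0.00283 in EV. VWF rose (log2 fold change 1.69, SE 0.35, adjusted p = 3.39e-04), the largest rise in the list was 2.91, and EMCN did not reach a mean of 5 counts. The Notch effector HEY1, a gene active in endothelium and other tissues, fell from 79.6, 81.3 and 72.1 to 7.57, 7.76 and 6.12 CPM (log2 fold change -3.44, SE 0.18, adjusted p = 1.67e-13). HEY1 is not in the endothelial list and was the largest fall among 23 Notch pathway genes. Of these 8 rose and 7 fell, with a median of 0.24 (total-count scaling, 5 higher and 8 lower), and 4 fell without EV replicate 1 or YAP5SA replicate 2 or 3. Of 27 adipocyte genes 5 were higher and 5 lower (total-count scaling, 4 higher and 10 lower), and 8 were higher without YAP5SA replicate 1. PPARG, the adipocyte master regulator, was at 36.1, 28.9 and 32.1 CPM in the YAP5SA libraries and 46.3, 51.03 and 42.9 CPM in the EV libraries (log2 fold change -0.53, SE 0.14, adjusted p = 0.00329), and FABP4 and ADIPOQ did not reach a mean of 5 counts. EBF1 and DLK1, genes of early adipocyte precursors, fell with log2 fold changes of -3.04 (adjusted p = 1.26e-11) and -3.50 (adjusted p = 2.30e-04).

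Ion channels and neuronal guidance genes held some of the largest single changes. KCND3, a potassium channel subunit, was at 6.304, 6.06 and 8.47 CPM in the YAP5SA libraries and 0.138, 0.0762 and 0.0484 CPM in the EV libraries, so that it was nearly absent from EV. TRPA1, a cation channel of sensory neurons, fell from 10.2, 8.42 and 7.56 to 0.612, 0.947 and 0.4397 CPM (log2 fold change -3.73, SE 0.24, adjusted p = 8.22e-12). Among 45 axon guidance genes 21 fell and 15 rose (total-count scaling, 11 higher and 22 lower), PLXNA4 from 19.5, 23.5 and 15.1 to 1.74, 3.03 and 1.799 CPM and SEMA3B, a secreted semaphorin, up to 93.9, 113 and 105 from 9.83, 7.197 and 10.03 CPM. NPPB, which encodes B-type natriuretic peptide and is a cardiac stress gene, was at 345, 391 and 172 CPM in the YAP5SA libraries and 0.138, 0.152 and 0 CPM in the EV libraries. It was almost absent from EV, and YAP5SA replicate 3 was the lowest of its group.

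Zinc finger and chromatin genes went down in small steps. Of 502 zinc finger genes 234 fell and 29 rose, with a median of -0.34 and 27 lower by 2-fold or more (total-count scaling, 318 lower and 9 higher). They took 0.768% ± 0.0532 of counts in YAP5SA and 1.01% ± 0.0359 in EV. Among 45 Polycomb, SWI/SNF and SAGA/ATAC subunits 18 fell and 6 rose, and none changed by 2-fold (total-count scaling, 1 higher and 28 lower). Those called higher numbered 2 without EV replicate 1 or YAP5SA replicate 2, and 3 without YAP5SA replicate 1. PHC2, a Polycomb subunit, was at 236, 253 and 204 CPM in the YAP5SA libraries and 384, 418 and 436 CPM in the EV libraries (log2 fold change -0.84, SE 0.12, adjusted p = 6.80e-06), and the acetyltransferase KAT2B fell by 0.79 on the log2 scale. GC content moved with these decreases. In the bin of lowest GC content 37.9% were called lower and 11.9% higher. With offsets that remove a trend on GC content and length in each library, chosen after seeing the data, 241 zinc finger genes were called lower and 34 higher, and 20 and 4 chromatin genes.

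**Figure D4:**
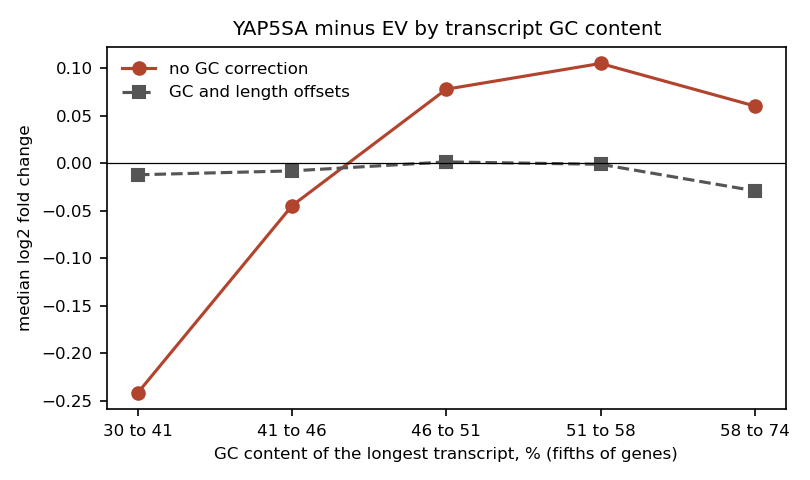
Median log2 fold change (y axis, YAP5SA minus EV) in 5 equal bins of genes by GC content of the longest transcript (x axis, %), for genes averaging 50 counts or more, without correction (red) and with GC and length offsets (grey, dashed). The lowest bin lies at -0.24 without the offsets and at -0.01 with them.

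A set of genes was essentially off in one group. Of the 19440 genes tested, 65 called genes had at most 3 counts in each EV library and at least 20 in each YAP5SA library. Of these 42 were protein-coding and 19 long noncoding, and 9 genes showed the reverse. Each passed the count filter only through the group in which it was on. Being off in the other group is the rule that picked these genes and is no added result. SFTA1P, a long noncoding RNA, had 696, 662 and 723 counts in the YAP5SA libraries and 0, 1 and 0 in the EV libraries, at least 256-fold higher. KISS1, the kisspeptin gene, had 255, 340 and 237 counts in the YAP5SA libraries and 2, 3 and 2 in the EV libraries (at least 103-fold), and CAVIN2, a caveolar coat protein, 213, 249 and 228 counts in the YAP5SA libraries and 3, 1 and 2 in the EV libraries (at least 85.2-fold). Muscle genes were in this set, such as the troponins TNNI1 and TNNT2, with TNNT2 at 203, 193 and 53 counts in the YAP5SA libraries and 0, 0 and 2 in the EV libraries, in which YAP5SA replicate 3 was the lowest of its group. Some pregnancy-specific glycoproteins were in it as well, but these are near-identical to each other and their separate counts are uncertain. In the other direction APLNR, the apelin receptor, had 0, 1 and 1 counts in the YAP5SA libraries and 32, 49 and 34 in the EV libraries, at least 11.5-fold lower in YAP5SA.

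The libraries labelled TAZ4SA, the other construct of the series with LATS target serines replaced by alanine, were compared with YAP5SA in the same fit. This was done to see where YAP5SA differed. WWTR1 was lower in them than in EV (134 ± 0.639 CPM against 204 ± 20.3 CPM) and above its level in YAP5SA. Counts of the resident gene and of transduced cDNA cannot be told apart here, so WWTR1 alone cannot test the label. The paper shows TAZ4SA protein in SW872 cells by western blot. These samples are called the libraries labelled TAZ4SA. Genes were kept by their counts in YAP5SA and EV only, so genes counted mainly in the libraries labelled TAZ4SA could be left out. Of the 19440 genes, 1452 were called between YAP5SA and these libraries (7.47%), 737 higher and 715 lower in YAP5SA. Without TAZ4SA replicate 1, YAP5SA replicate 1 or TAZ4SA replicate 2 there were 894, 900 and 939. Among YAP/TAZ targets 0 of 22 were higher and 2 lower in YAP5SA, and the ATF4 list had 0 called in either direction. CCN1 stood at 894 ± 17.9 CPM there and at 731 ± 8.79 CPM in YAP5SA (log2 difference -0.29, SE 0.10, adjusted p = 0.0972). A p that misses the threshold does not show that the levels are alike.

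Of the cholesterol genes 12 of 26 were higher in YAP5SA than in the libraries labelled TAZ4SA and 0 lower. HMGCS1 was at 136 ± 14.7 CPM there and 280.1 ± 32.4 CPM in YAP5SA and 157 ± 10.8 CPM in EV, and its difference between YAP5SA and these libraries was called (log2 difference 1.04, SE 0.25, adjusted p = 0.00959). Fibrillar collagens and their processing genes differed in the same direction, with 12 of 25 higher and 2 lower. In that list COL1A1 was at 15.1 ± 6.33 CPM in the libraries labelled TAZ4SA against 61.5 ± 30.2 CPM in YAP5SA and 19.2 ± 5.13 CPM in EV, and YAP5SA exceeded them (log2 difference 2.03, SE 0.34, adjusted p = 3.07e-04). COL12A1, outside it, was at 131 ± 8.46 CPM in the libraries labelled TAZ4SA against 629.6 ± 22.8 CPM in YAP5SA and 45.2 ± 4.05 CPM in EV, and this too was called (log2 difference 2.27, SE 0.12, adjusted p = 6.24e-12). KRT8 was 995 ± 78.04 CPM in the libraries labelled TAZ4SA, below its level in YAP5SA (log2 difference 1.11, SE 0.17, adjusted p = 8.84e-05), and KCND3 was higher there, at 47.4 ± 9.63 CPM (log2 difference -2.76, SE 0.22, adjusted p = 1.09e-08).

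**Figure D5:**
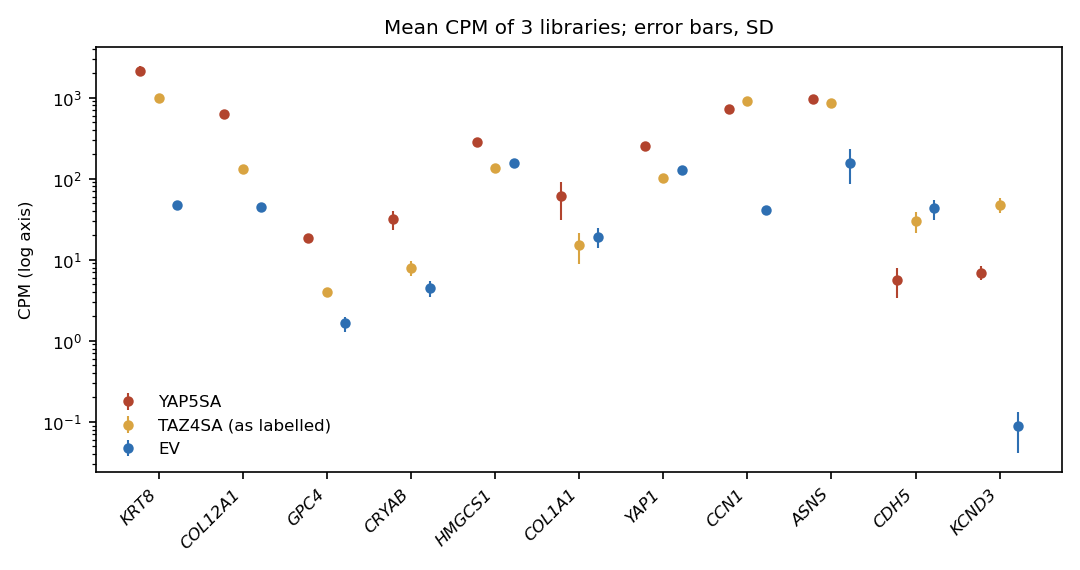
Mean CPM (log axis) with SD over 3 libraries for 11 genes in YAP5SA (red), the libraries labelled TAZ4SA (yellow) and EV (blue). COL12A1, GPC4 and CRYAB are higher in YAP5SA than in both other groups, CCN1 and ASNS lie close together in YAP5SA and the libraries labelled TAZ4SA, and KCND3 is highest in the libraries labelled TAZ4SA.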

How the data were processed

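Poly(A) RNA from SW872 cells was sequenced by the authors as stranded paired-end libraries, and reads were aligned to hg38 with Hisat2 in the bcbio-nextgen workflow. The deposited files hold whole-number counts per Ensembl gene, 1 file per library, not normalized and not pooled. The counting tool, whether it used strand, and how it treated reads aligning to more than 1 place were not given in the sources used here, so genes that overlap a gene on the other strand (105 of 212 named genes) or have near-identical copies are uncertain. The authors tested salmon estimates with DESeq2.

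Counts of all 24 libraries were fitted with 1 mean per group by edgeR 4.0.16 (R 4.3.3), with TMM scaling, the quasi-likelihood F test and Benjamini-Hochberg adjustment over 19440 genes. CPM values are edgeR's, on TMM-scaled library sizes, and SE is the log2 fold change over the square root of F. P-values measure the spread among transductions, and 3 libraries against 3 cannot give an exact permutation p under 0.1. Of 60279 genes 56104 matched GENCODE 44, which gave symbols and coordinates. Intervals and count floors (3 counts) cover counting error only. Alternatives were DESeq2 1.42.0, other size factors, total-count scaling, filters, the compared groups only, a replicate block, a log2 threshold of 1, thinned counts, each library left out, and GC and length offsets. The fit was checked on simulated counts.

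The libraries compared, the 68 gene lists and the gene classes were chosen with earlier results of these data known, so counts over a list are descriptions. Named genes were the key genes of each list, its 2 called members with the largest change in the main direction and 1 in the other, with a mean of at least 50 counts and no overlap between groups. Some genes are not reported here. Further members named beside these, and the genes whose promoters are printed, were chosen after their values were seen.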

Additional observations from a re-analysis of the deposited data

Results flagged for a closer look

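The effects of YAP5SA and of the construct labelled TAZ4SA against EV were compared for the 212 named genes, using the direct test between the 2 groups in the same fit. They differed by at least 2-fold, with an edgeR adjusted p under 0.05, in 20 genes, where adjusted p lay between 6.24e-12 and 0.0142. The named genes were chosen in part by their change between YAP5SA and EV, so the balance of directions among them does not describe all genes. Higher in YAP5SA by the log2 differences given were KRT17 (3.32), COL12A1 (2.27), GPC4 (2.18), POSTN (2.08), COL1A1 (2.03), CRYAB (2.00), MFAP5 (1.96), COL3A1 (1.67), LIMS2 (1.46), YAP1 (1.32), FGFR3 (1.29), SEMA3B (1.23), KRT8 (1.11) and HMGCS1 (1.04). Lower in YAP5SA were KDR (-1.14), ITGA10 (-1.24), CD74 (-1.43), MMP9 (-1.91), CDH5 (-2.42) and KCND3 (-2.76). The difference in YAP1 can include transduced cDNA. POSTN was below its EV level in YAP5SA and lower still in the libraries labelled TAZ4SA (0.393 ± 0.117 CPM), and COL3A1 was not called between YAP5SA and EV and stood at 2.88 ± 0.767 CPM in the libraries labelled TAZ4SA. For KRT17 and COL1A1, YAP5SA replicate 3 was the lowest library of its group, and the part of that library in the difference was not tested. Groups of 3 libraries were not tested for outlying libraries.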

How the results depend on the processing

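Calls between YAP5SA and EV numbered 8521 to 10003 under DESeq2 (8750), other size factors, other filters on low counts, thinned counts and a fit of the compared groups only, and none of the 8900 calls was called in the opposite direction under any of these. Total-count scaling moved the genes called lower to 6821 (higher, 3182). A test against a log2 fold change of 1 left 1474 genes (1012 higher, 462 lower) and 76 between YAP5SA and the libraries labelled TAZ4SA, because it asks for larger changes. Without each library in turn, calls lay between 7543 and 8599 (3915 and 4503 higher, 3560 and 4096 lower), and between 894 and 1296 against the libraries labelled TAZ4SA, where the fewest remained without TAZ4SA replicate 1 (894), YAP5SA replicate 1 (900) and TAZ4SA replicate 2 (939).

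Library numbers recur between groups. They did not pair YAP5SA with EV, since deviations of same-numbered libraries correlated at -0.0133, 0.0696 and 0.00877. YAP5SA replicate 1 correlated better with EV replicate 2 (0.0734). With the libraries labelled TAZ4SA the correlations were 0.0794, 0.132 and 0.392, and YAP5SA replicates 1 and 2 correlated better with another number than with their own (0.117 and 0.213). YAP5SA replicates 1 and 2 correlated negatively with TAZ4SA replicate 3 (-0.162 and -0.289), and YAP5SA replicate 3 with TAZ4SA replicates 1 and 2 (-0.254 and -0.216). Replicate 3 thus stood apart from replicates 1 and 2 in both of these groups. The source of this shared pattern was not tested. With the replicate block 8996 genes were called (4575 higher, 4421 lower), and 1553 against the libraries labelled TAZ4SA. With GC and length offsets, added after seeing the data, 9751 were called, and with these offsets and a replicate block 9916.

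With total-count scaling 59 counts over lists and classes moved by more than 1.5 times and 117 by less, EGFR, B2M, COL3A1 and CXCL8 became called lower (adjusted p = 0.0485, 0.0253, 0.00582 and 0.0431), and CDC45, NDUFS6, NDUFV1, COX7A2 and SQSTM1 were no longer called. Sign changes were seen in named genes that were not called at the main setting: with total-count scaling in ACTA2 (-0.10), EGFR (-0.17) and MCM2 (-0.17). With the GC and length offsets they were seen in ACTA2 (-0.00409; with the replicate block, -0.0127), EGFR (-0.0146 and -0.0144), MCM2 (-0.0847 and -0.0847) and B2M (0.0755 and 0.0809). Leaving out a library reversed EGFR without EV replicate 3 and MCM2 without EV replicate 1 or YAP5SA replicate 1 or 2, with ranges over the libraries left out of -0.0317 to 0.0408 and -0.0510 to 0.136. Fold changes of 204 named genes called at the main setting kept their sign at every setting in which they could be fitted. At this depth, genes under a mean of 5 counts were not tested.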
